A study of Mus musculus with 4 samples.

Results

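The lecticans, the link proteins and the matrilins are the proteins that assemble hyaluronan, a long unbranched sugar polymer, into a swollen gel and tie that gel to collagen fibrils. Lecticans are chondroitin sulfate proteoglycans whose amino-terminal globular domain grips hyaluronan. Link proteins bind both partners and lock the grip. Matrilins are oligomers built from von Willebrand factor A domains that bridge collagen fibrils and aggrecan. In the inner ear, collagen-rich matrix of this kind is found in the spiral limbus, the spiral ligament, the tectorial membrane and the cartilage model of the otic capsule. The set described here holds 10 genes, chosen by name as the lecticans Acan, Vcan, Bcan and Ncan, the link proteins Hapln1 and Hapln3 and the matrilins Matn1, Matn2, Matn3 and Matn4, out of 17816 genes with a value.

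Cochlear RNA of C57BL/6 mice at postnatal day 10 was sequenced in 2 Zbtb20 knockout (KO) and 2 wild-type (WT) libraries, which carry replicate numbers 2 and 3 in each genotype. The KO libraries are labelled F/F and the WT libraries +/+ at Zbtb20, the gene of a zinc finger transcription factor. Both genotypes carry a cre driver, which is spelled FoxG2-cre in replicate 2 and FoxG3-cre in replicate 3 of each genotype. Whether these spellings stand for different drivers is not known. The cells in which the driver acts are not given in the labels, and neither is how many animals went into a library. P-values therefore measure the spread between these libraries, which may be technical. The values are FPKM, fragments per kilobase of transcript corrected for library depth, so levels of different genes can be set side by side.

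Summed FPKM was 398113 to 400487 in the KO libraries and 391808 to 405144 in the WT libraries. The steps between low values placed the depth near 17900000 and 19400000 fragments in the KO libraries and near 17700000 and 18600000 in the WT libraries. Zbtb20 itself was at 7.35 and 7.41 FPKM in the KO libraries and at 10.94 and 10.67 FPKM in the WT libraries (log2 fold change -0.49 ± 0.08, SE, n = 2 per group, adjusted p = 0.0394 by limma with Benjamini-Hochberg adjustment). Leaving out any single library ended that call (adjusted p = 0.083 to 0.316). A gene-level value counts every exon, and the labels do not name which exons the floxed allele loses. Skeletal muscle markers summed to 4.64 and 2.46 FPKM in KO replicates 2 and 3 and to 467.6 and 1.87 FPKM in WT replicates 2 and 3, so WT replicate 2 stood apart. The 13 chondrocyte markers summed to 13480 and 12440 FPKM in the KO libraries and to 13080 and 12990 FPKM in the WT libraries. The largest part was Col2a1, at 5943.63 to 6516.2 FPKM, which is also a collagen of the tectorial membrane. Ucma of this list was at 572.52 to 869.09 FPKM, while Comp, Col10a1 and Ihh lay between 0.25 and 2.24 FPKM.

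The KO cochleae held less Acan and Bcan transcript and more Matn1 and Matn4 transcript than the WT cochleae. Acan was 2.17-fold and Bcan 1.63-fold lower, and Matn1 was 3.62-fold and Matn4 2.53-fold higher, as ratios of mean FPKM. The other 6 genes of the set were either too low to test or varied between libraries of the same genotype by more than the genotypes differed. Of the 8 members with a mean of at least 0.5 FPKM, which was the limit for testing, 2 were called higher and 2 lower at an adjusted p of 0.05 (limma), and the same 4 had an unadjusted p under 0.05. Over all 13966 genes tested, 4.43% were called, 2.38% higher and 2.04% lower, and 22.0% had an unadjusted p under 0.05. The members were chosen with earlier results of these data known, so their count is a description. The median log2 fold change of the 8 members tested was -0.49, and that of all genes tested was 0.06. In bulk tissue, fewer cells of a type and less RNA per cell cannot be told apart.

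**Figure D1:**
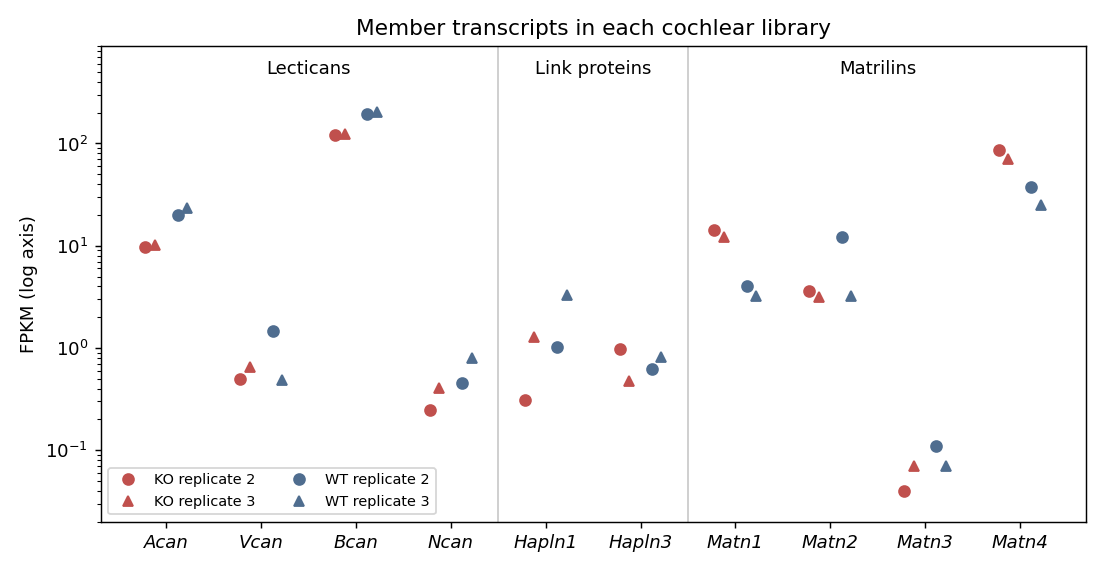
FPKM of the 10 genes on a log axis, by family, with 1 point per library, KO in red to the left of WT in blue, circles for replicate 2 and triangles for replicate 3. The KO points lie below the WT points for Acan and Bcan and above them for Matn1 and Matn4, while Vcan, Hapln1, Hapln3, Matn2 and Matn3 overlap between genotypes.

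Both KO libraries lay beyond both WT libraries in 5 of the 10 genes: Acan, Bcan and Ncan were lower, and Matn1 and Matn4 were higher. Ncan was below the limit for testing, so the count among the 8 members tested was 4. Among all genes tested, 55.0% had KO libraries that did not overlap the WT libraries, so the count of members by itself is close to the level of all genes tested.

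Aggrecan, encoded by Acan, is the proteoglycan that gives cartilage its resistance to compression, and it is also a major component of perineuronal nets, the matrix coats of some neurons. Acan was measured at 9.67 and 10.15 FPKM in the KO libraries and at 19.79 and 23.22 FPKM in the WT libraries. The KO libraries differed from each other 1.05-fold and the WT libraries 1.17-fold, while the lowest WT library was 1.95 times the highest KO library. The log2 fold change was -1.04 ± 0.10 (SE, n = 2 per group, adjusted p = 0.0116, limma). By level, Acan stood at rank 6961 of all genes in the KO and at rank 3634 in the WT.

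Brevican, encoded by Bcan, is a lectican best known from the brain, where it occurs as a secreted form and as a form anchored to the membrane. Bcan had 121.06 and 123.75 FPKM in the KO libraries, against 194.6 and 204.75 FPKM in the WT libraries. Replicates differed by 1.02-fold in the KO and 1.05-fold in the WT, which were the smallest replicate differences of the set. Its log2 fold change was -0.70 ± 0.07 (adjusted p = 0.0114, limma). The table holds 2 transcripts of Bcan under 1 value, so the secreted and anchored forms were not separated here.

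Matrilin 1, encoded by Matn1 and also known as cartilage matrix protein, is a marker of cartilage that binds both aggrecan and collagen. Matn1 was at 14.15 and 12.31 FPKM in the KO libraries, against 4.07 and 3.24 FPKM in the WT libraries. The lowest KO library was 3.02 times the highest WT library. The log2 fold change was 1.61 ± 0.13 (adjusted p = 0.00779, limma), which placed Matn1 at rank 36 among the 333 genes called higher.

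Matrilin 4, encoded by Matn4, is a widely expressed matrilin. Matn4 was at 86.75 and 70.74 FPKM in the KO libraries and at 37.24 and 24.99 FPKM in the WT libraries. The groups did not overlap, but replicates differed by 1.23-fold in the KO and 1.49-fold in the WT. The log2 fold change was 1.33 ± 0.20 (adjusted p = 0.0335, limma), at rank 55 among the genes called higher. Of the exon bases of Matn4, 2.9% are shared with Rbpjl on the other strand, and the labels and headers do not say if fragments were assigned by strand.

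These 4 calls were made only with both KO libraries in the fit. A fit with 1 KO library takes its replicate spread from the WT libraries alone. Without KO replicate 2 the members called were 0, with adjusted p from 0.151 to 0.298, and without KO replicate 3 they were 0, with adjusted p from 0.118 to 0.21 (limma). Unadjusted p of the 4 genes was 0.00114 to 0.0125 without KO replicate 2 and 0.000703 to 0.00585 without KO replicate 3. Over all genes, 0.00715% and 0.00717% were called in those fits. The 4 log2 fold changes kept their signs there, at -1.01 and -1.07 for Acan, -0.69 and -0.72 for Bcan, 1.52 and 1.71 for Matn1 and 1.19 and 1.48 for Matn4. Without WT replicate 2, the library with muscle transcripts, all 4 genes were called, as were 3.84% of all genes, with log2 fold changes of -1.15 for Acan, -0.74 for Bcan, 1.74 for Matn1 and 1.61 for Matn4. Without WT replicate 3, when 4.15% of all genes were called, 5 members were: these 4 and Matn2. The 4 log2 fold changes were smaller there, at -0.93 for Acan, -0.66 for Bcan, 1.49 for Matn1 and 1.05 for Matn4. Over the 11 alternatives, adjusted p ran from 0.0011 to 0.171 for Acan, 0.00115 to 0.172 for Bcan, 0.000459 to 0.151 for Matn1 and 0.000594 to 0.298 for Matn4. Without the filter on low values Matn4 was not called (adjusted p = 0.0863). Median-of-ratios scaling of the libraries moved the median of all genes by -0.06 on the log2 scale and turned the split of all calls to 243 higher and 348 lower, against 333 and 285 before, and the 4 members kept their calls.

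**Figure D2:**
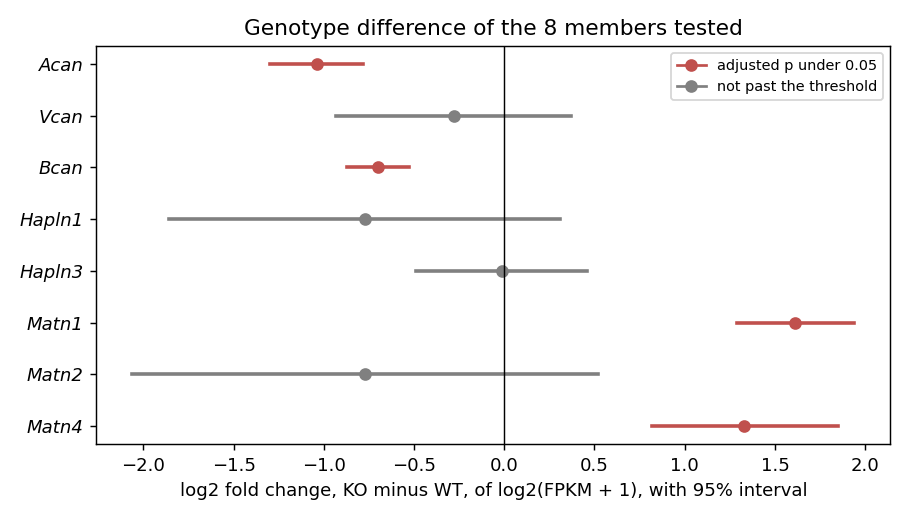
Log2 fold changes (KO minus WT, on the log2(FPKM + 1) scale) of the 8 members tested, with 95% intervals from limma as bars. Red marks an adjusted p under 0.05: Acan and Bcan lie at -1.04 and -0.70 and Matn1 and Matn4 at 1.61 and 1.33, and the intervals of Vcan, Hapln1, Hapln3 and Matn2 span 0.

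The sequences just upstream of the transcription start are shown for the 4 called genes, Acan and Bcan, called lower, and Matn1 and Matn4, called higher. Whether these sequences have a part in the differences was not tested. Each is the 250 bases before the start in RefSeq on GRCm38.p6 (the assembly of mm10), written 5′ to 3′ on the gene's own strand. Capitals mark matches on either strand to 4 motifs. GGGCGG is the GC box and TATAAA the TATA box. ACAATG with its variant ACAAAG is the core of sites bound by SOX proteins. SOX9 is the transcription factor that drives cartilage matrix genes. The windows are chr7:79052976-79053225 (plus strand) for Acan, chr3:88000357-88000606 (minus strand) for Bcan, chr4:130944135-130944384 (plus strand) for Matn1 and chr2:164405161-164405410 (minus strand) for Matn4.
Acan: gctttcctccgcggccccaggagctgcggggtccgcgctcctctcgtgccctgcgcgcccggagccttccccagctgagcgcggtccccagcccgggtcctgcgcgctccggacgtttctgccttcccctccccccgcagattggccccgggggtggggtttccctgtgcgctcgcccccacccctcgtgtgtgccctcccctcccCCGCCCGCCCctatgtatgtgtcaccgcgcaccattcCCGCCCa
Bcan: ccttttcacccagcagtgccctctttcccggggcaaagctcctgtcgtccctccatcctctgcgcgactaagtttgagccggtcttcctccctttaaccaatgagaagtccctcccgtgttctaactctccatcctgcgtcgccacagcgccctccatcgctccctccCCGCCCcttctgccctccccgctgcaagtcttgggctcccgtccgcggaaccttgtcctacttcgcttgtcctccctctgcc
Matn1: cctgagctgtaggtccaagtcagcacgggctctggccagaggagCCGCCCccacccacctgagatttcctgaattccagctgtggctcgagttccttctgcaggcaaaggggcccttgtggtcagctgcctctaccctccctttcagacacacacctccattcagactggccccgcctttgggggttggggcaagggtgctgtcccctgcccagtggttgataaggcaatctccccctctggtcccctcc
Matn4: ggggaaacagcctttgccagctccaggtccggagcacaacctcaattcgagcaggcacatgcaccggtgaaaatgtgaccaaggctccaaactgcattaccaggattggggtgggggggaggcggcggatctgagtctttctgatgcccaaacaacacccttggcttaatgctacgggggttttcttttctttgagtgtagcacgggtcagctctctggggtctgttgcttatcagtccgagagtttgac
The Acan window held 3 matches to the GC box, 44, 40 and 7 bases before the start, of which the first 2 overlap, and the Bcan and Matn1 windows held 1 each, at 82 and 206 bases. The Matn4 window held 0. Of 32851 RefSeq promoter windows of the same length, 32.7% held a GC box. None of the 4 windows printed held any of the other motifs. TATAAA occurred in 12.4% of all windows, ACAATG in 10.7% and ACAAAG in 16.5%. GC content was 74.4% for Acan, 62.0% for Bcan, 62.0% for Matn1 and 54.4% for Matn4, against a median of 52.4%. A second start of Matn4, with a window at chr2:164404819-164405068, had 62.8% GC and 1 GC box.

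Versican, encoded by Vcan, is the lectican of soft and developing tissues. Vcan had 0.5 and 0.65 FPKM in the KO libraries and 1.45 and 0.49 FPKM in the WT libraries. Only WT replicate 2 was high, and the other WT library lay below both KO libraries. The log2 fold change was -0.28 ± 0.26 (95% interval -0.93 to 0.37, adjusted p = 0.554, limma), and it was 0.08 without WT replicate 2. Its level corresponds to about 111 and 157 fragments in the KO libraries and 319 and 113 in the WT libraries at the estimated depth. Vcan has 5 transcripts under 1 value, and the longest matched one, of 12427 bases, was used. A shorter transcript would give fewer fragments.

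Neurocan, encoded by Ncan, is a lectican of the nervous system. It stood at 0.25 and 0.41 FPKM in the KO libraries and at 0.45 and 0.8 FPKM in the WT libraries, a mean below the limit for testing. Both KO libraries were below both WT libraries, but by only 1.10-fold at the nearest pair. About 32 and 57 fragments stood behind the KO values and 57 and 107 behind the WT values.

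Link protein 1, encoded by Hapln1, is the link protein of cartilage and of perineuronal nets. Hapln1 was at 0.31 and 1.27 FPKM in KO replicates 2 and 3 and at 1.02 and 3.29 FPKM in WT replicates 2 and 3. Replicate 3 was higher than replicate 2 in each genotype, 4.10-fold in the KO and 3.22-fold in the WT, and the groups overlapped. The log2 fold change was -0.77 ± 0.43 (95% interval -1.86 to 0.31, adjusted p = 0.351, limma). Leaving out 1 library moved it to between -1.31 and -0.23.

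Hapln3 encodes a widely expressed link protein. Hapln3 was at 0.97 and 0.47 FPKM in the KO libraries and at 0.62 and 0.82 FPKM in the WT libraries. The group means were both 0.72 FPKM, and the log2 fold change was -0.01 ± 0.19 (95% interval -0.49 to 0.46, adjusted p = 0.975, limma). Some 31 to 58 fragments stood behind each value.

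Matrilin 2, encoded by Matn2, belongs to matrix of many tissues, including peripheral nerve and muscle. Matn2 was at 3.62 and 3.14 FPKM in the KO libraries and at 12.07 and 3.24 FPKM in the WT libraries. As with Vcan, WT replicate 2 alone was high. The log2 fold change was -0.77 ± 0.51 (95% interval -2.06 to 0.52, adjusted p = 0.423, limma). It was 0.04 without WT replicate 2 (adjusted p = 0.89), and -1.58 without WT replicate 3, when it passed the threshold (adjusted p = 0.00774), against a range of 0.00774 to 0.89 over the 11 alternatives.

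Matrilin 3, encoded by Matn3, is a matrilin of growth cartilage. Matn3 was at 0.04 and 0.07 FPKM in the KO libraries and at 0.11 and 0.07 FPKM in the WT libraries, values that stand for about 2 to 6 fragments each. A difference between genotypes was not detectable at this depth.

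Summed lectican FPKM was 131.5 and 135.0 in the KO libraries and 216.3 and 229.3 in the WT libraries, with the KO below the WT. Bcan supplied 92.1% and 91.7% of it in the KO and 90.0% and 89.3% in the WT, and Acan 7.35% and 7.52% in the KO and 9.15% and 10.1% in the WT. Bcan was 12.5 and 12.2 times the Acan level in the KO libraries and 9.83 and 8.82 times in the WT libraries, with no overlap. These shares and ratios were not tested.

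Summed matrilin FPKM was 104.6 and 86.26 in the KO libraries and 53.49 and 31.54 in the WT libraries. Matn4 made up most of the sum in every library, with 83.0% and 82.0% in the KO and 69.6% and 79.2% in the WT. Matn1 took 13.5% and 14.3% in the KO and 7.61% and 10.3% in the WT. Matn2 took 3.46% and 3.64% in the KO and 22.6% and 10.3% in the WT. The lecticans therefore summed to less, and the matrilins to more, in both KO libraries than in either WT library, and each sum was led by 1 gene in all 4 libraries, Bcan and Matn4.

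The link proteins Hapln1 and Hapln3 together reached 1.28 and 1.74 FPKM in the KO libraries and 1.64 and 4.11 FPKM in the WT libraries. These sums were far below those of the lecticans in every library. Hapln3 led in KO replicate 2, with 75.8% of the pair, and Hapln1 led in the other 3 libraries, with 73.0% in KO replicate 3 and 62.2% and 80.0% in the WT. The order within the pair thus varied between replicates.

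**Figure D3:**
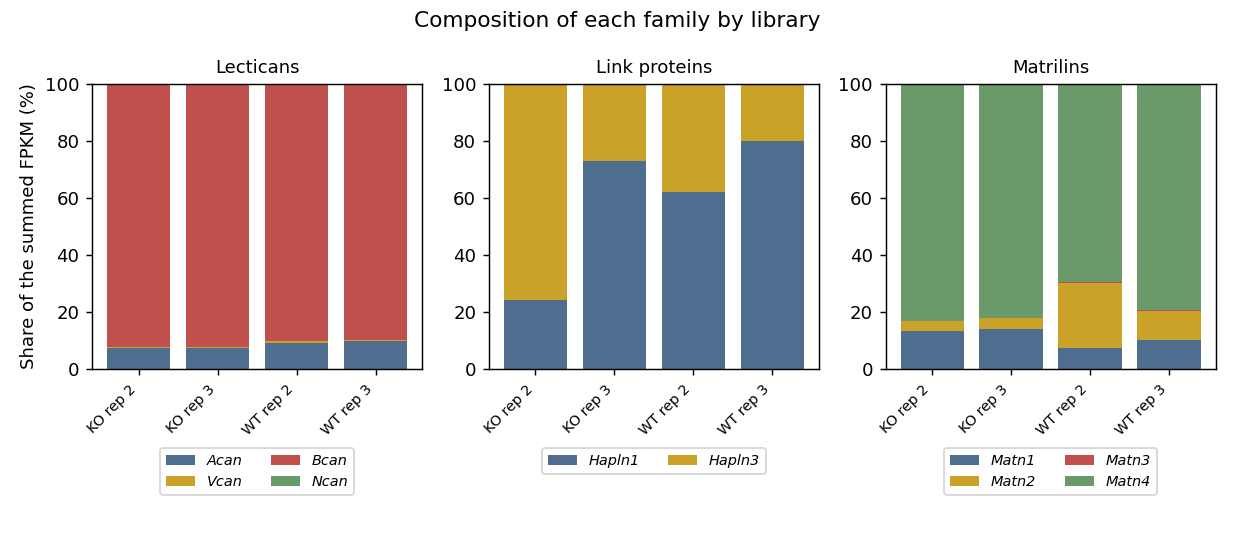
Share of the summed FPKM of the members of each family taken by each gene, with 1 stacked bar per library, the 2 KO libraries to the left of the 2 WT libraries. The link proteins Hapln2 and Hapln4 are not members and are left out. Bcan and Matn4 lead their families in all 4 libraries, the Matn2 share is widest in WT replicate 2 at 22.6%, and the split between Hapln1 and Hapln3 changes from library to library.

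Each lectican gene has a link protein gene as its neighbour, with 0 protein-coding genes between the members of each pair in GENCODE vM21 on GRCm38. Acan (chromosome 7, 79053483 to 79115099, plus strand) and Hapln3 (79115102 to 79131018, minus strand) end 2 bases apart. Acan had a log2 fold change of -1.04 and Hapln3 of -0.01. Vcan (chromosome 13, 89655312 to 89742509, minus strand) and Hapln1 (89539796 to 89611652, plus strand) lie 43.7 kb apart, at -0.28 and -0.77. Bcan (chromosome 3, 87987531 to 88000230) lies 21.5 kb from Hapln2, both on the minus strand. Ncan (chromosome 8, 70093085 to 70120873, minus strand) lies 2.2 kb from Hapln4 (70083457 to 70090862, plus strand). The link protein genes next to the 2 called lecticans were both low. Hapln3 stayed at a mean of 0.72 FPKM in either genotype beside Acan, and Hapln2, a link protein of myelinated axons, was at 0.11 and 0.02 FPKM in the KO libraries and 0.21 and 0.21 FPKM in the WT libraries beside Bcan. The matrilin genes are scattered, with Matn1 on chromosome 4 (130944385 to 130955475), Matn2 on 15 (34306677 to 34436273), Matn3 on 12 (8947929 to 8972028) and Matn4 on 2 (164389393 to 164405160).

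The spread of Hapln1 between replicates was shared by Hapln4, the link protein that pairs with brevican in the brain, and by neuron markers. Hapln4 was at 0.49 and 2.92 FPKM in KO replicates 2 and 3 and at 2.55 and 8.15 FPKM in WT replicates 2 and 3 (log2 fold change -1.24 ± 0.61, adjusted p = 0.303, limma). The 9 neuron markers summed to 58.79 and 156.3 FPKM in KO replicates 2 and 3 and to 121.0 and 357.1 FPKM in WT replicates 2 and 3. Hapln1, Hapln4 and the neuron sum were thus all lowest in KO replicate 2 and highest in WT replicate 3. Rbfox3, Stmn2 and Prph, which are in that list, did not have this order. Of the 8 neuron markers tested 0 were called, with a median log2 fold change of -1.42, and no marker was listed at 0. The part of neuron content in the Hapln1 values was not tested.

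The high Vcan and Matn2 values of WT replicate 2 stood beside its muscle transcripts and beside some, but not all, other matrix genes. Col1a1, a collagen gene of bone and connective tissue, was at 74.42 and 74.03 FPKM in the KO libraries and at 567.74 and 100.71 FPKM in WT replicates 2 and 3. Col3a1 was at 417.14 and 233.65 FPKM in WT replicates 2 and 3. Dcn, at 223.33 and 219.73 FPKM, and Lum, at 356.55 and 348.83 FPKM, hardly differed between these 2 libraries. In the skeletal muscle list, 0 of 10 markers were called, and Acta1, Ckm and Myh4 were listed at 0 in at least 1 library. The part of muscle or connective tissue in the Vcan and Matn2 values was not tested.

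**Figure D4:**
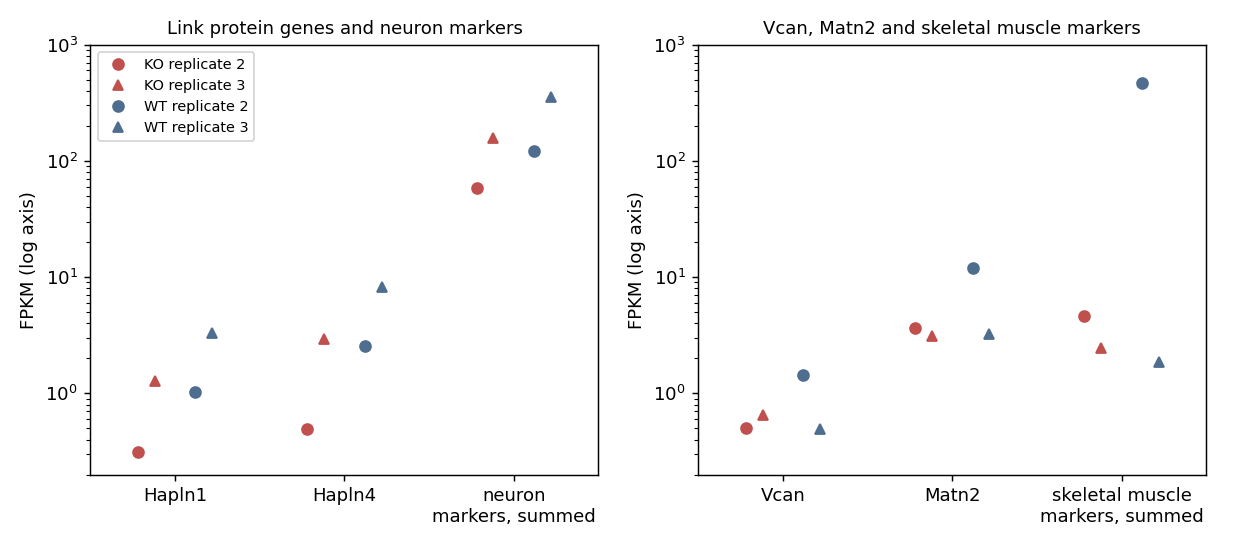
FPKM on a log axis for Hapln1, Hapln4 and the summed neuron markers (left) and for Vcan, Matn2 and the summed skeletal muscle markers (right), with 1 point per library, KO in red and WT in blue. Hapln1, Hapln4 and the neuron sum share the order of libraries, from KO replicate 2 at the bottom to WT replicate 3 at the top, except that KO replicate 3 and WT replicate 2 lie close together. Vcan, Matn2 and the muscle sum are highest in WT replicate 2.

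Of the other cell types, Schwann cell markers moved in the same direction as Acan and Bcan, and strial markers in the same direction as Matn1 and Matn4. Schwann cell and myelin markers were called lower in 9 of 10, and summed to 1953 and 2540 FPKM in the KO libraries and to 9682 and 6941 FPKM in the WT libraries. Strial markers were called higher in 7 of 8, and summed to 338.2 and 315.4 FPKM in the KO libraries and to 98.55 and 93.84 FPKM in the WT libraries. Supporting cell markers, with Hes5 listed at 0 in a library, summed to 143.6 and 141.7 FPKM in the KO and 245.8 and 236.9 FPKM in the WT. They were called lower in 3 of 7 tested, namely Ngfr, Emid1 and Slc1a3. Sox2, Fgfr3, Gfap and Prox1 had log2 fold changes of 0.09, -0.09, 0.15 and -0.75 and did not pass. No Schwann cell or strial marker was listed at 0. Blood and marrow markers were called lower in 2 of 6 tested and fibroblast markers higher in 2 and lower in 1 of 10, while hair cell and endothelial markers gave 0 calls of 8 and of 6. Other sums also separated by genotype. Hair cell markers summed to 168.9 and 194.2 FPKM in the KO libraries and to 239.8 and 247.2 FPKM in the WT libraries. Blood and marrow markers summed to 546.2 and 516.3 FPKM in the KO and to 928.9 and 721.2 FPKM in the WT. Fibroblast markers summed to 8207 and 8370 FPKM in the KO and to 6918 and 5789 FPKM in the WT. The largest part of that sum was Otor, at 4648.79 and 4667.95 FPKM in the KO and 2111.56 and 1916.48 FPKM in the WT. Coch of the same list went the other way, at 605.24 and 718.75 FPKM in the KO and 1618.49 and 1527.54 FPKM in the WT. The direction of the fibroblast sum is therefore not that of the list as a whole. Any list lower in the KO shares its direction with Acan and Bcan, and any list higher with Matn1 and Matn4. The part of these cells in the 4 called genes was not tested.

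The chondrocyte markers gave 1 gene called higher and 0 lower of 13, with a median log2 fold change of -0.01. Sox9, the chondrocyte transcription factor gene, was at 52.04 and 47.63 FPKM in the KO libraries and at 57.59 and 49.62 FPKM in the WT libraries (log2 fold change -0.10 ± 0.10, adjusted p = 0.579, limma). Col2a1, which encodes the main fibrillar collagen of cartilage and of the tectorial membrane, was at 6516.2 and 5943.63 FPKM in the KO libraries and at 6160.38 and 6392.08 FPKM in the WT libraries. Set against Col2a1, Acan was low: Col2a1 was 674 and 586 times Acan in the KO libraries and 311 and 275 times in the WT libraries. Col2a1 was 461 and 483 times Matn1 in the KO libraries and 1510 and 1970 times in the WT libraries. Comp, a cartilage adaptor protein that also binds matrilins, was at 0.92 and 0.68 FPKM in the KO libraries and at 2.24 and 0.41 FPKM in the WT libraries. Osteoblast markers gave 1 gene called higher of 8 and a median of -0.45, with sums of 929.5 and 1274 FPKM in the KO libraries and 1298 and 1680 FPKM in the WT libraries.

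The genes that make, anchor, trim and surround the same matrix were examined as 5 lists with 91 genes, of which 83 were tested. Of these, 6 were called higher and 6 lower (limma), or 14.5%, against 4.43% of all genes tested. The lists were drawn up with earlier results of these data known, so that share is a description.

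Hyaluronan makers and binders gave 1 higher and 2 lower of 16 tested, with a median log2 fold change of 0.04. Itih5 and Itih3 encode heavy chains that are coupled to hyaluronan. Itih5 was at 34.42 and 35.19 FPKM in the KO libraries and at 62.81 and 71.61 FPKM in the WT libraries (-0.93 ± 0.09, adjusted p = 0.0107, limma), and Itih3 fell by 0.75 ± 0.12 on the log2 scale (adjusted p = 0.042). Stab1, a scavenger receptor gene of macrophages and sinusoidal endothelium, rose by 0.47 ± 0.08 (adjusted p = 0.047). The Itih3 call ended without WT replicate 3 (adjusted p = 0.0717), the intensity trend (0.0501) or the filter (0.0927). The Stab1 call ended after median-of-ratios rescaling (0.0637) and without WT replicate 2 (0.0971), WT replicate 3 (0.0911), the trend (0.0695) or the filter (0.0795). The hyaluronan synthase genes were low: Has3 had a log2 fold change of -0.03, and Has1 and Has2 were below the limit for testing.

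For chondroitin sulfate synthesis, by which the sugar chains of the lecticans are built and sulfated, 2 of 27 tested genes were called lower and 0 higher, with a median of 0.06. Chst11, which encodes the enzyme that adds sulfate at the 4-position of chondroitin, was at 41.33 and 44.53 FPKM in the KO libraries and at 67.38 and 73.40 FPKM in the WT libraries (-0.70 ± 0.08, adjusted p = 0.0159, limma). Ust, the uronyl 2-sulfotransferase gene, fell by 0.52 ± 0.08 (adjusted p = 0.0317). The Ust call ended without WT replicate 2 (adjusted p = 0.0702), WT replicate 3 (0.071), the intensity trend (0.0527) or the filter (0.0587). Both encode sulfotransferases.

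Of 12 tested genes for lectican cleavage and its inhibition, 1 was called higher and 1 lower, with a median of 0.02. Adamts20, a versican-cleaving protease gene, was at 1.31 and 1.04 FPKM in the KO libraries and at 5.26 and 3.92 FPKM in the WT libraries (-1.35 ± 0.16, adjusted p = 0.0169, limma). Adamts9, the gene of its close relative, was at 6.44 and 6.19 FPKM in the KO libraries and at 3.79 and 3.96 FPKM in the WT libraries (0.59 ± 0.09, adjusted p = 0.0365). The Adamts9 call ended without WT replicate 2 (adjusted p = 0.0754), WT replicate 3 (0.0663) or the filter (0.0807), and the Adamts20 call without the filter (0.0526). The aggrecanase genes Adamts4 and Adamts5 were at -0.09 and -0.34 and did not pass.

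Of 18 tested genes of the cartilage matrix around the members, 3 were called higher and 1 lower, with a median of -0.01. Chad, which encodes chondroadherin, a leucine-rich protein that binds chondrocytes, was at 55.64 and 60.44 FPKM in the KO libraries and at 113.71 and 101.99 FPKM in the WT libraries (-0.88 ± 0.09, adjusted p = 0.0117, limma). Fmod, the gene of the collagen-binding proteoglycan fibromodulin, was at 50.36 and 65.34 FPKM in the KO libraries and at 29.65 and 27.64 FPKM in the WT libraries (0.98 ± 0.13, adjusted p = 0.0258). Snorc, which encodes a chondroitin sulfate proteoglycan of the cartilage cell membrane, rose by 1.01 ± 0.15 (adjusted p = 0.0331), and Cytl1, a secreted protein gene of cartilage, by 0.57 ± 0.09 (adjusted p = 0.0341). Without WT replicate 3 the calls of Fmod (adjusted p = 0.0553) and Cytl1 (0.0712) ended. Without the filter those of Fmod (0.071), Snorc (0.0718) and Cytl1 (0.0739) ended, and that of Cytl1 also ended after median-of-ratios rescaling (0.0598) and without the intensity trend (0.0606). The collagen genes Col9a1, Col9a2, Col9a3, Col11a1 and Col11a2 had log2 fold changes from -0.17 to 0.12, and none passed.

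Among 10 tested genes of nervous system matrix, 1 was called higher and 0 lower, with a median of -0.04. Spock1, which encodes testican 1, a secreted proteoglycan, was at 33.85 and 26.86 FPKM in the KO libraries and at 10.65 and 10.18 FPKM in the WT libraries (1.45 ± 0.12, adjusted p = 0.00889, limma). Tnr, the tenascin that binds lecticans in perineuronal nets, was at 0.04 and 0.09 FPKM in the KO libraries and at 0.13 and 0.12 FPKM in the WT libraries. Cspg5 and Ptprz1, a membrane proteoglycan and a proteoglycan receptor phosphatase, had log2 fold changes of 0.10 and -0.33 and did not pass. Of the 12 list genes called with all libraries, 0 were called without KO replicate 2 and 0 without KO replicate 3. Without WT replicate 3 the list genes called higher were 2, against 6 with all libraries.

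**Figure D5:**
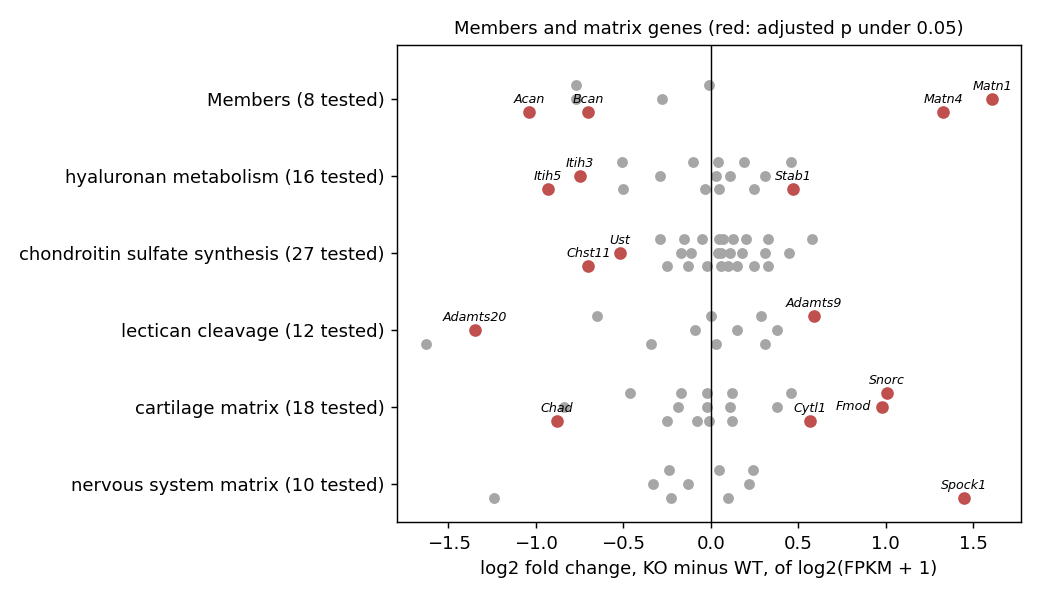
Log2 fold changes (KO minus WT, on the log2(FPKM + 1) scale) of the 8 members tested and of the tested genes of the 5 matrix lists, with 1 point per gene and the number tested beside each name. Red points with names passed an adjusted p of 0.05. Acan and Bcan lie at -1.04 and -0.70, and Matn1 and Matn4 at 1.61 and 1.33. The list genes reach from -1.63 (Mmp13, which did not pass) to 1.45 (Spock1), and most of them lie near 0.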

How the data were processed

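Per the file headers, each library has 1 deposited table of FPKM, given to 2 decimals. The submitters' processing notes name build mm10, RSEM 1.2.12, HISAT2 2.0.4 and Bowtie2 2.2.5, with no role for any of them. Each table had 20777 rows, of which 17816 held values, and 4 repeated per-sample columns were not used. Groups and replicate numbers came from the sample titles. The 13966 genes whose mean reached 0.5 FPKM entered limma 3.58.1 in R 4.3.3 on log2(FPKM + 1), with genotype as the term, an intensity trend and Benjamini-Hochberg adjustment, two-sided, at 0.05. Adding 1 before the logarithm makes changes of low genes look smaller. The fit was tested on simulated data. No count test was used, because between 71.3% and 74.2% of low values (421 to 470 per library) came out as whole fragments, within 0.15. At a depth fixed in advance chance gives 30%. The depth was the one with the largest share of whole fragments, so 30% is not the chance level of that share. The depth estimate rests on transcript lengths from GENCODE vM21.

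The members and gene lists were chosen with earlier results of these data known. Named genes are the 10 members, Zbtb20, up to 4 called genes with the smallest p of each matrix list, Hapln2, Hapln4, Col2a1, Sox9 and Comp; others were named after their values were seen. Promoter windows came from RefSeq, where 9 of 10 members matched. Alternatives changed the pseudocount, filter, scaling, variance trend, replicate block and libraries.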

Additional observations from a re-analysis of the deposited data

How the results depend on the processing

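Over 11 alternatives, 17 called genes (the 4 called members, Zbtb20 and the 12 called genes of the matrix lists) kept their sign in all 187 refits. The called supporting cell markers Ngfr, Emid1 and Slc1a3 were not in that count. Of the 17, 13 passed without the intensity trend, 15 after median-of-ratios scaling and 7 without the filter. Without the filter on low values 1 member was called higher and 2 lower, the matrix lists gave 1 higher and 3 lower, and 159 genes were called higher and 107 lower in all; this setting adds low genes to the test. Leaving out 1 library gave 0 to 2 members called higher and 0 to 3 lower, 0 to 5 and 0 to 7 matrix list genes, and 1 to 272 and 0 to 345 genes in all. The lowest counts came without KO replicate 2 or KO replicate 3, which leaves 1 KO library that is assumed to vary like the WT. In those fits 1615 and 1782 genes had an unadjusted p under 0.05. The replicate numbers occur in both genotypes, but nothing says that they pair animals. Same-numbered libraries deviated together (r = 0.41 across 13044 genes). With the replicate block 1362 genes were called higher and 991 lower, the matrix lists gave 15 and 10, and the members 2 and 3, with Hapln1 added (adjusted p = 0.0181; 0.0181 to 0.779 over the alternatives). Hapln4 also passed with the block (-1.24, adjusted p = 0.00184; 0.00184 to 0.736 over the alternatives). FPKM tables hold no counts, so counting error was not estimated for Matn3, Ncan and the link proteins.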
